A study of Mus musculus with 12 samples.

Results

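Cluster 14 of a single-cell RNA-seq atlas of mouse MC38 tumors was labelled conventional type 2 dendritic cells (cDC2). Its members were all cells to which the authors' deposited clustering had given the number 14, which came to 4981 of 93126 cells (5.35%) in 27 clusters. MC38 is a mouse colon carcinoma line, and its cells had been injected under the skin of female mice aged 8 to 12 weeks. Once a tumor measured 75 to 110 mm3, the animal was given 200 µg of either an isotype control or aPD1, an antibody to the T cell inhibitory receptor PD-1, and the tumor was taken 48 h later.

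Hosts were F1 animals of C57BL/6J and a Collaborative Cross (CC) strain, or C57BL/6J (B6) animals. Every F1 host therefore carried a B6 chromosome set beside its CC set, and the tumor cells were the same line in all hosts. The study called the F1 hosts of CC001, CC002 and CC075 responders and those of CC036, CC079 and CC080 non-responders, after how their tumors grew under aPD1. This gave 10 isotype and 10 aPD1 tumors from responder strains and 9 of each from non-responder strains, while 10 tumors of B6 and CC007 F1 hosts were not classed. Class is a property of 3 strains against 3 strains, and an effect of class cannot be told apart from other differences between those strains.

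Conventional dendritic cells take up antigen and present it to T cells. The type 1 subset is known for presenting antigen to CD8 T cells on MHC class I, and the type 2 subset for presenting to CD4 T cells on MHC class II. Mouse cDC2 are commonly recognised by C-type lectins such as Cd209a and Clec10a together with MHC class II and the growth factor receptor Flt3, and in tumors they share many genes with macrophages and monocyte-derived cells.

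Each tumor was 1 hashtagged specimen in 1 of 12 pools of 4, and the tumor was the replicate throughout. Cluster 14 held 9 to 267 cells per tumor, with a median of 108, and 22814 to 1353200 unique molecular identifiers (UMIs, each marking 1 captured transcript) per tumor. The median cell had 5301 UMIs and 1855 genes, against 3333.5 UMIs and 1454 genes over all cells. Of 87940 distinct barcodes, 4990 occurred in more than 1 pool, and 15 stood on cluster 14 cells of more than 1 pool. Only hashtags could mark doublets, no doublet caller was run, and 0.442% of cluster 14 cells were above 20000 UMIs, against 0.339% of macrophages. The 4 tumors with fewer than 20 cluster 14 cells entered the comparisons of shares but not those of genes.

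The cells of cluster 14 were first set against the other clusters by counts per 1000000 UMIs (CPM), pooled over all tumors. This is a description, because the clusters had been drawn from the same values. Cd209a, a lectin that binds glycans on pathogens and cells, stood at 266.8 CPM in cluster 14. It was at 103.3 in cluster 18, a cluster led by plasmacytoid dendritic cell markers, at 23.6 in cluster 6, a cluster led by cDC1 markers, at 3.92 in cluster 11, led by migratory dendritic cell markers, and at 1.42 in macrophages. No other of the 27 clusters had a higher level. H2-Ab1, a chain of MHC class II, was likewise highest in cluster 14, at 7290 CPM, with 7208 in cluster 6 and 3228 in macrophages.

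The markers Clec10a and Flt3 were higher in other clusters. Clec10a, a lectin for galactose residues, was at 140.8 CPM in cluster 14 and higher in cluster 18 (326.7). Flt3 was at 39.9 CPM in cluster 14, well under the 208 of cluster 6 and the 255 of cluster 11, though above the 1.1 of macrophages. A UMI of Cd209a was found in 30.9% of cluster 14 cells, and in 0.301% of macrophages and 0.108% of T/NK cells at median depths of 5301, 3481 and 1918 UMIs. After each cell was thinned to 1000 UMIs, with shallower cells left out (95 in cluster 14), the Cd209a shares were 17.1% in cluster 14 and 0.122% in macrophages, and the Flt3 share was 4.36% in cluster 14 and 20.4% in cluster 6.

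Macrophage transcripts were present at an intermediate level. The 10 genes of the macrophage list summed to 3696 CPM in cluster 14, against 18610 in macrophages and 688 in cluster 6. C1qb, a complement subunit of macrophages, had a UMI in 34.4% of cluster 14 cells, in 63.9% of macrophages and in 6.83% of T/NK cells. In thinned cells the shares were 20.4% in cluster 14, 57.04% in macrophages and 4.01% in T/NK cells. By contrast, all 9 T/NK genes, all 6 fibroblast genes and all 5 granulocyte genes were under 10 CPM in cluster 14. Cells of cluster 14 with a UMI of any of Cd3d, Cd3e, Cd3g, Trac, C1qa, C1qb or C1qc made up 42.5% and are called mixed below. Their part in the results was examined by leaving them out.

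By ratio of CPM over all other cells, the leading genes were in order the lectins Cd209a (77.7 times) and Cd209c (38.2), Retnla (29.9), the lectin Cd209d (26.04), the chemokine Ccl17 (20.5), the lectin Mgl2 (16.8) and the MHC class II accessory chain H2-Oa (15.7). Ccl17, which attracts T cells through CCR4, was at 582 CPM here and higher in cluster 11 at 986. Retnla, a secreted protein of alternatively activated myeloid cells, was at 690 CPM, below the 1725 of cluster 9, and Il1r2, a decoy receptor for interleukin-1, was at 433 CPM, below the 2226 of cluster 16. Cd209d was at 58.3 CPM and higher in cluster 18 at 227.8. Of the 30 leading genes 12 had their highest level in cluster 14, among them Cd209a, Cd209c, Mgl2, H2-Oa, H2-DMb2 and Dcstamp, and the others were higher in another cluster.

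**Figure D1:**
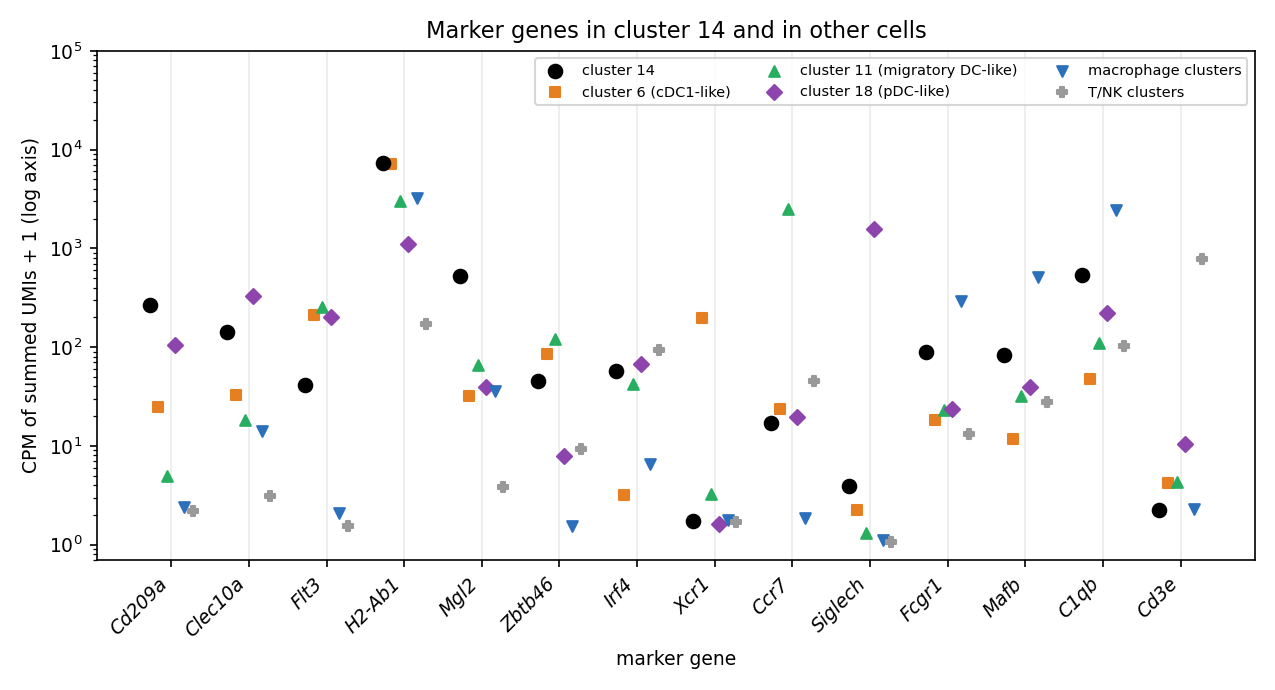
Pooled level of 14 marker genes in cluster 14, clusters 6, 11 and 18, macrophages and T/NK cells, as CPM + 1 on a log axis. Cd209a was at 266.8 CPM in cluster 14 and 1.42 in macrophages, while Flt3 was lower in cluster 14 (39.9) than in cluster 6 (208).

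The first comparison across tumors asked whether cluster 14 made up a different share of the cells in responder and non-responder strains. Tumors had been sorted to hold 90% CD45-positive cells, so a share is one of sorted cells and not of the tumor. Under isotype, the share in responder strains ran from 1.14% over a median of 4.28% to 7.54% (mean 4.44% ± 1.95, SD, n = 10). In non-responder strains it ran from 4.22% over 7.38% to 8.96% (6.68% ± 1.76, SD, n = 9). Of the 10 responder tumors 5 were below every non-responder tumor, and the others overlapped. The difference of −2.24 percentage points had an exact two-sided Wilcoxon rank-sum p = 0.0172, and 0.0861 after Benjamini-Hochberg adjustment over 5 share comparisons, so it did not pass at 0.05. The study's supplement lists this isotype difference as significant, at the same p of 0.0172 that the Wilcoxon test gave here before adjustment.

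After aPD1 the shares were 1.24%, 4.44% and 7.83% (lowest, median, highest) in responder strains and 2.91%, 5.50% and 8.68% in non-responder strains. The means were 4.21% ± 1.82 (SD, n = 10) and 5.65% ± 1.68 (SD, n = 9), and all but 2 responder tumors lay within the range of the non-responder tumors. The difference was −1.44 points (exact p = 0.0535, adjusted p = 0.134). With tumors compared only inside their pool, the responder tumors were lower in 7 of 8 pools under isotype and in 7 of 8 after aPD1 (exact p = 0.0312 and 0.0234, both 0.0625 after adjustment).

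The responder strains were not alike in their shares. CC075 tumors averaged 3.10% under isotype and 2.75% after aPD1, and CC001 tumors 3.74% and 4.96%, whereas CC002 tumors averaged 6.71% and 4.68%. The non-responder strains lay between 6.47% and 6.84% under isotype. Without CC002 hosts the isotype difference was −3.21 points (exact p adjusted 0.0166), and without CC075 hosts it was −1.67 points. With strain means as the values, 3 against 3, the isotype difference was −2.16 points (exact p = 0.2), in a design whose smallest possible p is 0.1.

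The aPD1 antibody was not followed by a detectable change in the share. In responder strains the aPD1 tumors were 0.226 points lower on average than the isotype tumors (exact p = 0.796), and the aPD1 tumor was the higher of its pool in 3 of 10 pairs. In non-responder strains they were 1.03 points lower (exact p = 0.222, adjusted p = 0.371) and were the higher of the pool in 2 of 9 pairs. Responder minus non-responder, the effects differed by 0.80 points (permutation p = 0.604).

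**Figure D2:**
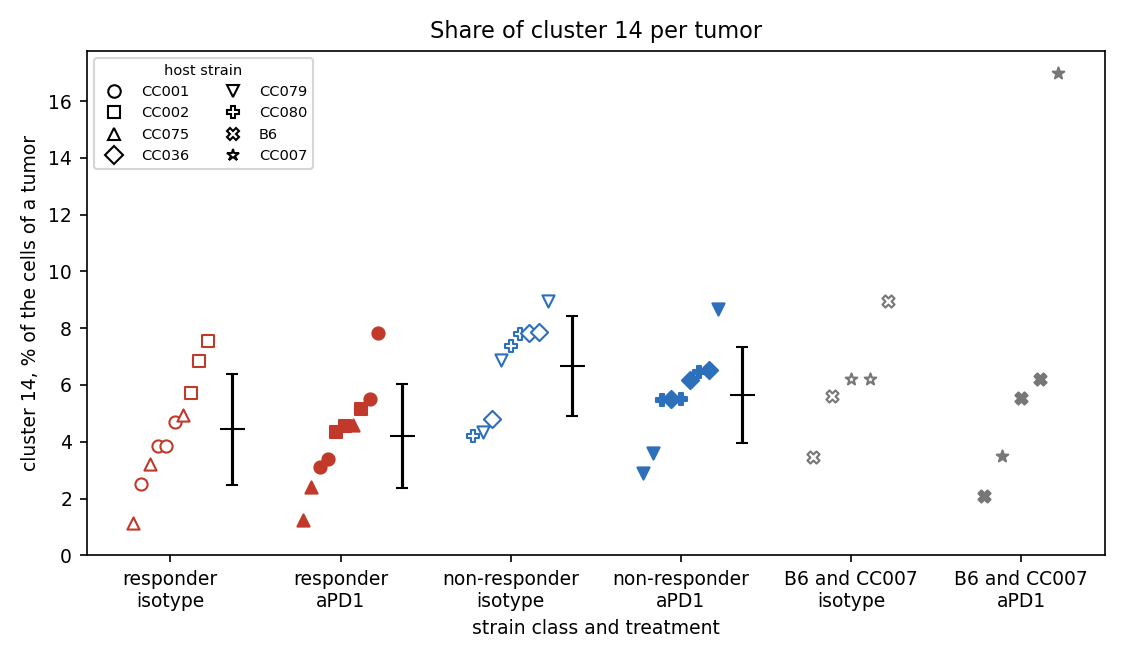
Share of cluster 14 among all sorted cells of a tumor, in percent, by class and treatment; each point is 1 tumor, its symbol the host strain, with the mean and SD of each group drawn beside the points. Under isotype 5 of 10 responder tumors lie below every non-responder tumor, and the CC002 tumors lie among the non-responder values.

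Because the clustering may have drawn on genes that differ between the classes, cells were also assigned anew to clusters without 64 genes. These were 30 genes of the H2 family and the genes called between classes in cluster 14. Other genes that differ between strains were kept, so their part in the clustering was not tested. Each cell was scored against the summed profiles of the deposited clusters, its own counts among them. Cells were not clustered again, so what a clustering without these genes would give was not tested. Of the cluster 14 cells 77.6% were assigned to it again, and 5124 cells were in the new cluster. The class difference in share was then −1.82 points under isotype (exact p = 0.0653) and −1.46 points after aPD1 (exact p = 0.156). In pools 1 to 5 the isotype difference was −1.57 points (exact p = 0.31) and in pools 8 to 12 it was −2.97 points (exact p = 0.0635).

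Gene expression within cluster 14 was then compared between classes over both treatments. UMI counts were summed per tumor and fitted with edgeR's quasi-likelihood test across 7179 genes in 36 tumors, 18 of each class (8 isotype and 10 aPD1 in responder strains, 9 and 9 in the others), and levels below are CPM after TMM scaling. At a Benjamini-Hochberg adjusted p under 0.05, 35 genes (0.488%) differed, 27 higher (0.376%) and 8 lower (0.111%) in responder strains. DESeq2 called 49 genes, 34 of them shared. With the pool as a block 71 genes passed, 29 of them shared. With counts summed per strain, 3 against 3, only 1 gene passed: Gm10260, a near-identical copy of Rps18 described below. Every other call was lost in that fit, so the p-values below measure the spread between tumors and not between strains. The called genes that the naming rule chose were refitted in 29 or 30 other settings (another tool, scaling or filter, or other cells, pools or strains left out), and the number in which a call was lost is given with the gene or its group. None of those recomputed changed sign apart from the markers Flt3 and H2-Ab1.

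Of the 17 members of the MHC class I list 5 were higher in responder strains and none lower, beside 0.376% higher and 0.111% lower over all genes tested, and 4 were higher without the tumor of highest T/NK marker sum (described below with the aPD1 comparison). In all, 16 had a difference above 0, and the median log2 difference was 0.30 against 0.00 over all genes tested. H2-Q7, a non-classical class I heavy chain (chr17:35439155-35443773, GRCm38), ran from 119.4 over a median of 198.8 to 312.8 CPM in responder tumors and from 65.6 over 113.2 to 130.9 CPM in non-responder tumors. In 16 of the 18 responder tumors it was above every non-responder tumor. Its log2 difference was 0.98 ± 0.10 (SE, edgeR adjusted p = 5.13e-09), and the strain means were 189.4, 224.0 and 212.9 CPM in CC001, CC002 and CC075 and 81.5, 110.5 and 118.2 CPM in CC036, CC079 and CC080. Its call was lost in 1 of 30 settings, the sum per strain (adjusted p = 0.108).

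B2m, the light chain that every class I molecule needs (chr2:122147686-122153083), ran from 2152 over 2606 to 3706 CPM in responder tumors and from 1785 over 2180 to 2750 CPM in the others. The ranges overlapped, but the mean of each responder strain (2625 to 2673 CPM) was above that of each non-responder strain (2091 to 2322 CPM). The log2 difference was 0.28 ± 0.06 (SE, edgeR adjusted p = 0.0273), and the call was lost in 13 of 30 settings.

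H2-T23, which encodes the ligand of inhibitory and activating NKG2 receptors, had medians of 429.0 CPM in responder tumors (290.8 to 581.2) and 252.7 CPM in non-responder tumors (148.6 to 485.3). The log2 difference was 0.69 ± 0.13 (SE, edgeR adjusted p = 0.00392), but the mean of CC080 (390.4 CPM) was above that of CC075 (359.9 CPM), so strains of the classes overlapped. The H2-T23 call was lost in 6 of 30 settings, among them those without CC001, CC036 or CC079 hosts. H2-T22, a further non-classical chain, differed by 0.70 ± 0.17 (adjusted p = 0.0410) with medians of 84.8 and 52.9 CPM, and H2-Q6 by 0.52 ± 0.12 (adjusted p = 0.0411) with medians of 111.5 and 73.6 CPM. Their calls were lost in 16 and 17 of 30 settings. H2-Q6 and H2-Q7, and H2-T22 and H2-T23, are close relatives whose reads a counter may split, so the value of each single gene is uncertain.

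The classical chains did not pass the threshold, though the H2-D1 difference was near the 0.28 of B2m, which was called. H2-K1 differed by 0.03 ± 0.15 and H2-D1 by 0.26 ± 0.07 on the log2 scale (edgeR adjusted p = 0.995 and 0.103). The peptide transporter Tap1 was 0.45 ± 0.12 higher (adjusted p = 0.0911). H2 genes vary in sequence between strains while all reads were aligned to the B6 genome, and the effect of this on the values was not tested.

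Genes that respond to interferon gamma leaned the same way, mostly short of the threshold. Their list shares Tap1, Psmb8 and Psmb9 with the MHC class I list, so the leans of the lists are not independent. Of 30 members tested, 27 had a difference above 0 and the median was 0.36, but only Gbp2b passed. Gbp2b, a guanylate-binding GTPase of cell-autonomous defence, had medians of 21 CPM in responder tumors (0 to 81.6) and 2.60 CPM in non-responder tumors (0 to 27.2), a log2 difference of 2.31 ± 0.54 (edgeR adjusted p = 0.0359). That difference rested on CC002, whose tumors averaged 58.6 CPM: without CC002 hosts it was 0.57 (adjusted p = 0.958), and DESeq2 gave an adjusted p of 0.0902. The Gbp2b call was lost in 12 of 29 settings, the pool block among them (adjusted p = 0.0578). Its relatives Gbp4 (0.97 ± 0.26, adjusted p = 0.0757) and Gbp5 (0.75 ± 0.22, adjusted p = 0.120) and the GTPase Iigp1 (1.18 ± 0.34, adjusted p = 0.107) did not pass. Guanylate-binding proteins are a family of similar genes, so these values are uncertain too.

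The type I interferon list showed no such lean. Of 22 members only 5 were above 0, the median was −0.10, and Ifi44 was the 1 member that passed (1.65 ± 0.38, edgeR adjusted p = 0.0332). Ifi44 lay outside the naming rule, so its levels by strain and the settings in which its call was lost are not given. Ifit3 (−0.60), Usp18 (−0.54) and Isg15 (−0.22) had differences below 0 that did not pass.

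Among the genes of largest difference, Ly6i, a small surface protein of myeloid cells anchored by a lipid (chr15:74979534-74983430), ran from 38.6 over 136.9 to 1240 CPM in responder tumors and from 10.3 over 35.3 to 122.5 CPM in non-responder tumors. The log2 difference was 3.15 ± 0.44 (SE, edgeR adjusted p = 1.25e-05). It was largely that of 1 strain: CC001 tumors averaged 655.7 CPM, CC002 84.1 and CC075 88.3, and the non-responder strains 30.3 to 52.1. Without CC001 hosts the difference was 1.16 (adjusted p = 0.0332), and the call was lost in 2 of 30 settings. Ly6 genes also form a family of similar sequence.

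Prdx5, an enzyme that breaks down peroxides, was higher in responder strains by 0.53 ± 0.11 (edgeR adjusted p = 0.00603), with medians of 702.0 CPM (477.3 to 1381) and 502.5 CPM (360.5 to 696.3), and 10 of 18 responder tumors were above every non-responder tumor. AW112010, an interferon-inducible transcript, was higher by 0.89 ± 0.22 (adjusted p = 0.0490; medians 723.4 and 287.4 CPM), and Sp140, a nuclear body protein of immune cells, by 0.54 ± 0.13 (adjusted p = 0.0425; medians 133.1 and 81.9 CPM). Strain means did not overlap between the classes for Prdx5 and AW112010, and they did for Sp140. The call of Prdx5 was lost in 4 of 30 settings, that of AW112010 in 15 and that of Sp140 in 18, the pool block among them (adjusted p = 0.0508).

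One of the 8 lower genes was Dcstamp, a membrane protein needed for the fusion of osteoclasts and macrophages and also found in dendritic cells (chr15:39745930-39760938). It ran from 20.1 over 103.4 to 285.1 CPM in responder tumors and from 164.0 over 233.1 to 471.0 CPM in non-responder tumors. In 13 of the 18 responder tumors it was below every non-responder tumor (log2 difference −0.93 ± 0.21, SE, edgeR adjusted p = 0.0273). Ybx3, which binds DNA and RNA at Y-box sequences, differed by −0.45 ± 0.08 (adjusted p = 0.00213; medians 96.2 and 148.5 CPM), and Gadd45gip1, a protein of mitochondrial ribosomes, by −0.49 ± 0.12 (adjusted p = 0.0438; medians 45.3 and 60.8 CPM). The call of Dcstamp was lost in 11 of 30 settings, that of Ybx3 in 3 and that of Gadd45gip1 in 19.

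The pair Rps18 (0.68 ± 0.09) and Gm10260 (−5.91 ± 0.37) also passed (edgeR adjusted p = 2.54e-06 and 7.62e-15), with calls lost in 1 and 0 of 30 settings. Gm10260 is a near-identical copy of Rps18, so reads may be split between them. It averaged 793.9 to 1121 CPM in the non-responder strains and in CC007 and 3.88 to 29.7 CPM in the responder strains and B6.

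The genes used to recognise cDC2 were themselves compared. Cd209a (chr8:3743397-3748984) ran from 41.9 over 197.1 to 333.1 CPM in responder tumors and from 72.7 over 301.0 to 475.6 CPM in non-responder tumors, and the groups overlapped (log2 difference −0.70 ± 0.20, edgeR adjusted p = 0.103). Clec10a (chr11:70156197-70170834) ran from 33.2 over 98.6 to 196.1 CPM and from 69.5 over 169.8 to 338.1 CPM, with 6 responder tumors below every non-responder tumor (−0.74 ± 0.20, adjusted p = 0.0899). Both missed the threshold here. Without mixed cells the Cd209a difference was −0.84 with an adjusted p of 0.0489, and without CC079 hosts that of Clec10a was −1.03 with an adjusted p of 0.00270.

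H2-Ab1 had medians of 7528 and 6898 CPM (log2 difference 0.06 ± 0.07, edgeR adjusted p = 0.885) and Flt3 medians of 34.3 and 36.2 CPM (−0.01 ± 0.18, adjusted p = 0.999). The wider MHC class II list had 0 of 14 members called, with 9 above 0 and a median of 0.10. Over all genes tested 0.488% were called, so 0 calls in this list or those below does not show that their genes were alike. Neither the 11 costimulation and checkpoint ligands nor the 15 chemokines had a member called (medians 0.02 and −0.22). The same held for the 18 dendritic cell transcription factors (median 0.01). The macrophage list also had 0 of 10 called (median −0.16), and its sum per tumor was 969 to 9748 CPM in responder isotype tumors and 3362 to 4614 CPM in non-responder isotype tumors.

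**Figure D3:**
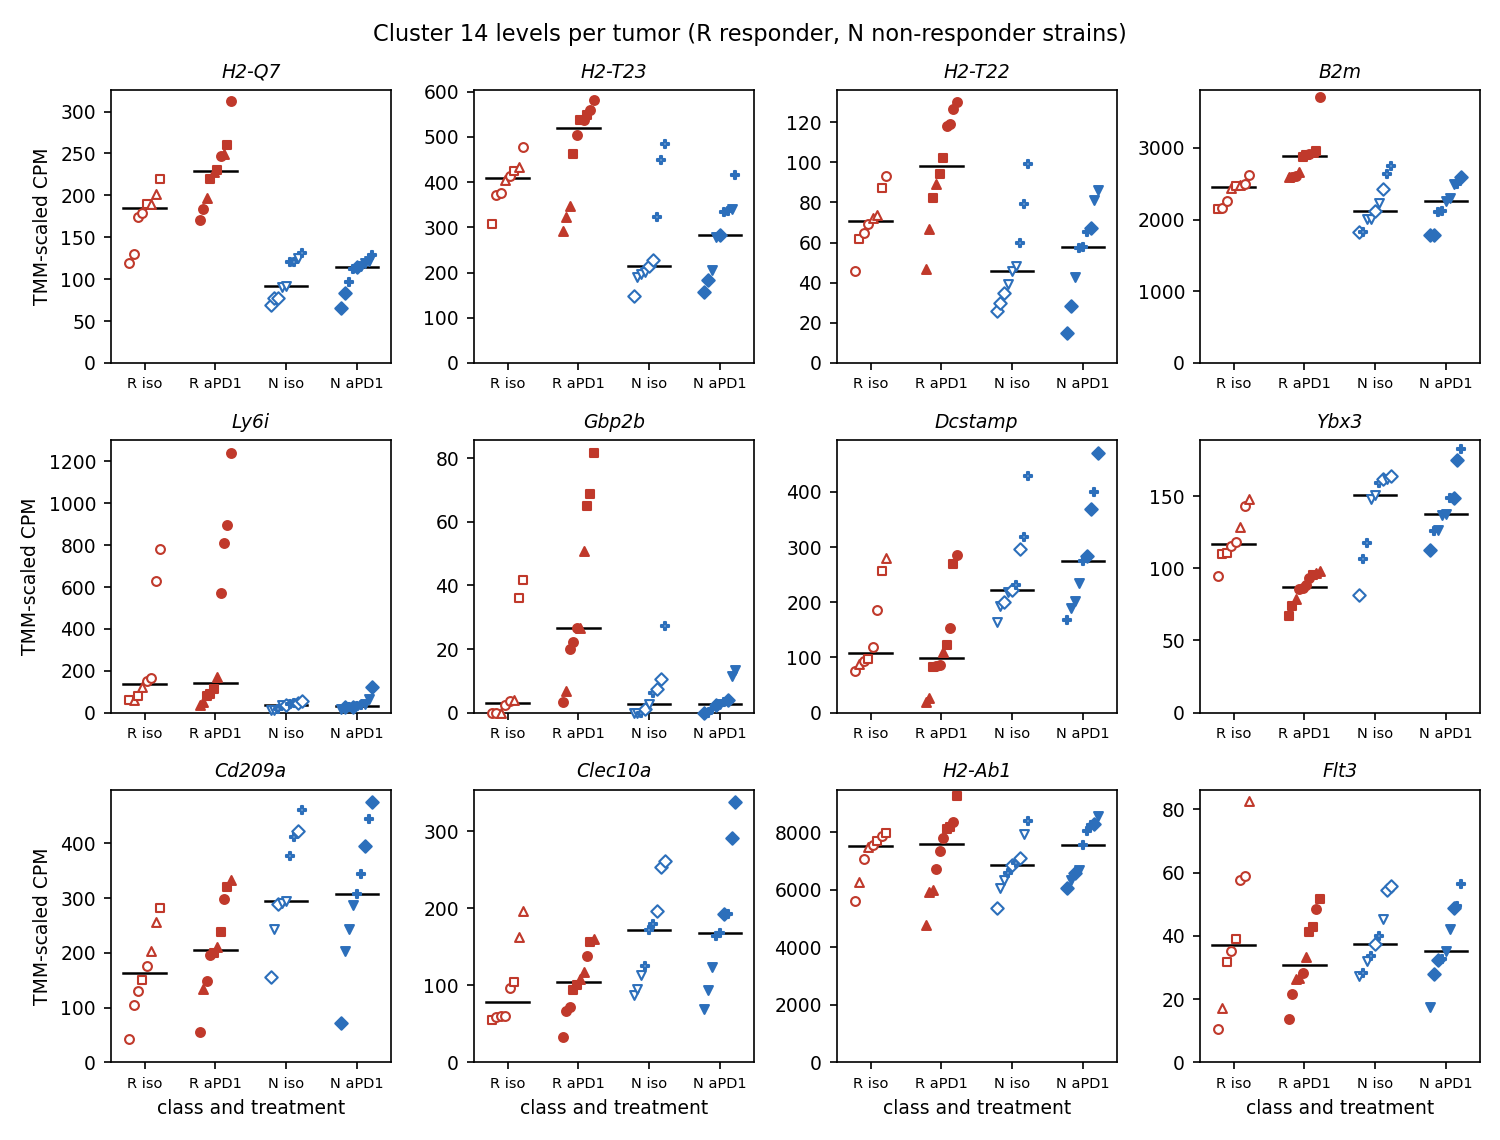
Level of 12 genes in cluster 14 per tumor, as TMM-scaled CPM, by class and treatment; symbols mark host strains and lines the group medians. H2-Q7 is above every non-responder tumor in 16 of 18 responder tumors and Dcstamp below every non-responder tumor in 13 of 18, while H2-Ab1 and Flt3 overlap throughout.

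The class comparison was repeated within each treatment; these comparisons share no tumors with each other but both are contained in the one above. Under isotype 8 genes passed (0.111%), 6 higher (0.0836%) and 2 lower (0.0279%), with 357 at an unadjusted p under 0.05. H2-Q7 ran from 119.4 over 184.5 to 219.8 CPM in responder isotype tumors and from 69.6 over 91.6 to 130.9 CPM in non-responder isotype tumors (log2 difference 0.83 ± 0.14, edgeR adjusted p = 0.00157). The H2-Q7 call was lost without mixed cells (0.87, adjusted p = 0.0723), in pools 1 to 5 (0.72, adjusted p = 0.144) and in pools 8 to 12 (0.98, adjusted p = 0.752). Prcp, a peptidase of the lysosome, had medians of 207.7 and 147.9 CPM (0.49 ± 0.10, adjusted p = 0.0296), and its call was lost in 17 of 29 settings. Ly6i differed by 2.99 ± 0.64 (adjusted p = 0.0296), but by 1.28 without CC001 hosts (adjusted p = 0.438), and its call was lost in 14 of 29 settings, the pool block among them (2.43, adjusted p = 0.0510). The markers Cd209a (−0.93), Clec10a (−0.68), H2-Ab1 (0.11) and Flt3 (0.08) did not pass.

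After aPD1 19 genes passed (0.265%), 13 higher (0.181%) and 6 lower (0.0836%). B2m ran from 2594 over 2892 to 3706 CPM in responder tumors and from 1785 over 2264 to 2591 CPM in non-responder tumors, without overlap (log2 difference 0.42 ± 0.09, edgeR adjusted p = 0.0180). H2-Q7 did not overlap either, at 170.5 to 312.8 CPM against 65.6 to 128.7 CPM (1.14 ± 0.14, adjusted p = 5.86e-07). Ybx3 was lower without overlap, at 66.7 to 98.1 CPM against 112.9 to 183.0 CPM (−0.72 ± 0.12, adjusted p = 0.000358). Of 29 settings the call of B2m was lost in 14, that of Ybx3 in 1 and that of H2-Q7 in 0.

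Of the 30 interferon gamma members tested in that comparison, only the guanylate-binding genes Gbp4 and Gbp2b were called, beside 0.181% higher over all genes. Gbp4 ran from 50.1 over 76.4 to 142.1 CPM in responder aPD1 tumors and from 6.43 over 23.3 to 67.5 CPM in the others (1.59 ± 0.34, edgeR adjusted p = 0.0209). Gbp2b differed by 3.46 ± 0.71 (adjusted p = 0.0123), which was 2.63 without CC002 hosts (adjusted p = 0.162). Ly6i differed by 3.32 ± 0.61, and by 1.04 without CC001 hosts (adjusted p = 0.00289 and 0.375). AW112010 (1.32 ± 0.31, adjusted p = 0.0474) and Prdx5 (0.65 ± 0.15, adjusted p = 0.0313) were again higher. The calls of Gbp4, AW112010, Prdx5 and Ly6i were lost in 12, 17, 18 and 3 of 29 settings, and that of Gbp2b in 8 of 28. The markers Cd209a (−0.48), Clec10a (−0.80), H2-Ab1 (0.01) and Flt3 (−0.11) did not pass.

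Of the interferon gamma list, 27 of 30 members were above 0 after aPD1, with a median of 0.52, against 24 of 30 and a median of 0.19 under isotype. The MHC class I list had medians of 0.36 and 0.24. Whether these differ between treatments was tested gene by gene as the difference of aPD1 effects, given next.

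No gene changed detectably after aPD1 within cluster 14. In responder strains edgeR called 0 of 7179 genes (0%), with 348 at an unadjusted p under 0.05 and a lowest adjusted p of 0.332, and DESeq2 called 0. In non-responder strains edgeR called 0, with 112 at an unadjusted p under 0.05, and DESeq2 called 0. The difference of aPD1 effects between the classes also gave 0 with either tool, with 202 genes at an unadjusted p under 0.05 by edgeR.

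In responder strains the members of several lists lay mostly on one side of 0, with no member past the threshold. The type I interferon list was above 0 in 22 of 22 members (median log2 difference 0.38), the interferon gamma list in 28 of 30 (0.42) and the MHC class I list in 17 of 17 (0.24), beside a median of −0.01 over all genes. The cell cycle list was above 0 in 3 of 18 members (median −0.22). Single values were 1.03 ± 0.36 for Gbp4, 0.70 ± 0.30 for Cd274, the ligand of PD-1, and 1.57 ± 0.58 for Ccl5, a chemokine for T cells (edgeR adjusted p of 0.937 to 0.982). In 1 responder aPD1 tumor (CC075, pool 10, with 23 cluster 14 cells) the T/NK genes summed to 337.5 CPM, where the next of the classed tumors was at 29.97 CPM, and Ccl5 stood at 704.3 CPM in it. Without this CC075 tumor, a setting chosen after seeing the data, Ccl5 was at 1.38 ± 0.58, and the medians were 0.42, 0.45 and 0.25 for the type I interferon, interferon gamma and MHC class I lists, with 22 of 22, 28 of 30 and 17 of 17 members above 0 and 0 called. The highest Ccl5 level, 1536 CPM, was in another responder aPD1 tumor (CC001, pool 2), whose T/NK sum was 0 and which was kept in that fit.

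In non-responder strains the type I interferon list was above 0 in 20 of 22 members (median 0.24), the interferon gamma list in 18 of 30 (0.07) and the MHC class I list in 16 of 17 (0.05). Gbp4 was at −0.22 ± 0.37, Cd274 at −0.05 ± 0.29 and Ccl5 at 0.72 ± 0.55. The isotype and aPD1 tumors also carried different hashtags, and treatment and hashtag cannot be told apart. Hashtags nearly followed class as well: hashtags 1 and 2 marked 18 of 20 responder tumors, and hashtags 3 and 4 marked 16 of 18 non-responder tumors.

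The genes of lowest p, which did not pass, were of mixed function. In responder strains they were the ubiquitin ligases Rnf114 (0.59 ± 0.13) and Rnf213 (0.57 ± 0.18) and the splicing factor Srsf5 (0.45 ± 0.13) among positive differences, and Ybx3 (−0.51 ± 0.12), Cacybp (−0.57 ± 0.15) and the chaperonin subunit Cct2 (−0.39 ± 0.12) among negative ones. In non-responder strains they were Lrp10 (0.34), Gpr171 (0.54), Ccnd2 (0.54), Myo9a (−0.30), Kpnb1 (−0.27) and Smim4 (−0.48). For the difference of effects they were Srsf5 (0.58), Pcgf5 (0.69), Dazap2 (0.42), Ybx3 (−0.54), Cacybp (−0.64) and Gpr171 (−0.83). The log2 differences of the markers were, in responder strains, 0.37 for Cd209a, 0.04 for Clec10a, 0.01 for H2-Ab1 and −0.18 for Flt3, and in non-responder strains −0.09, 0.15, 0.11 and 0.01, none past the threshold. Their differences of effects were 0.46, −0.12, −0.10 and −0.19.

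**Figure D4:**
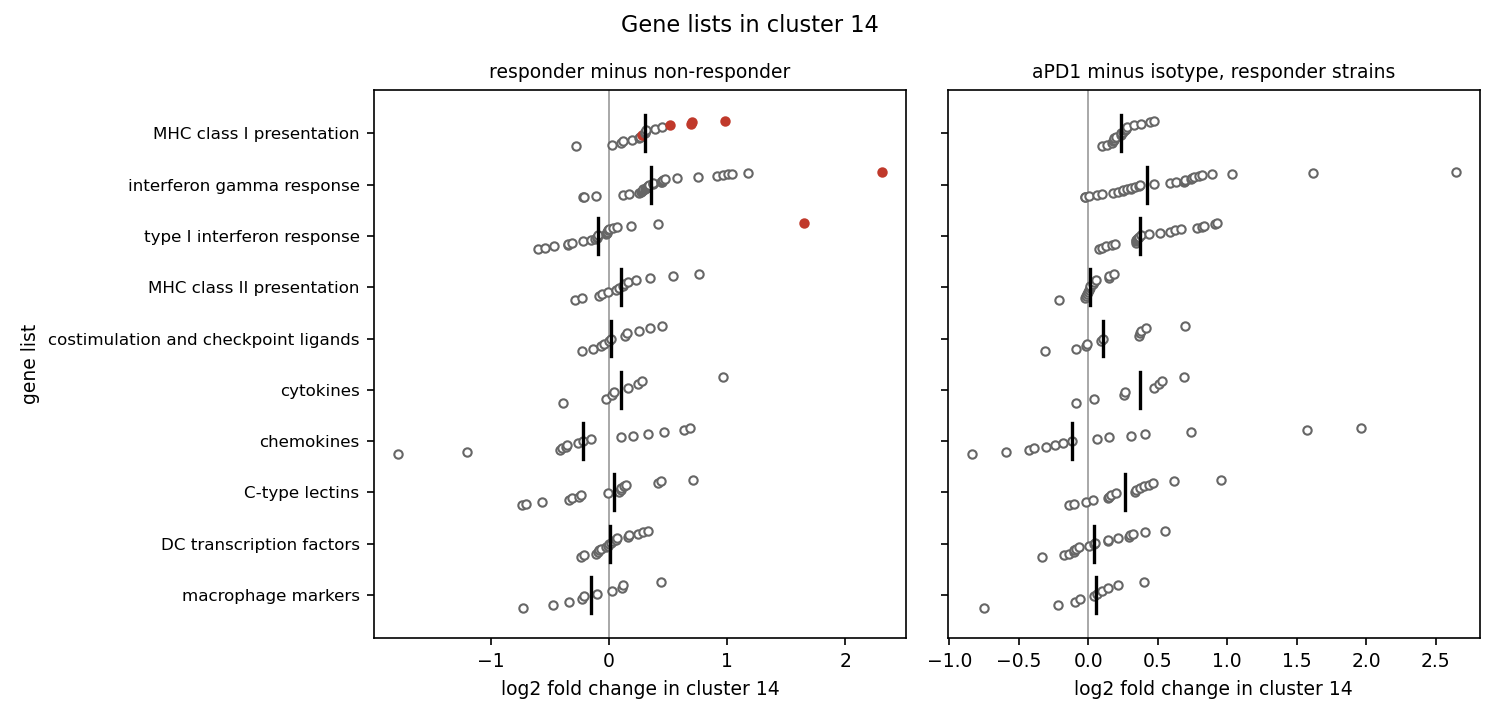
Log2 differences of the members of 10 gene lists within cluster 14, for responder minus non-responder strains over both treatments and for aPD1 minus isotype in responder strains; filled red points passed an adjusted p of 0.05, and the bar is the list's median. The MHC class I list holds 5 called genes in the class comparison, and no gene is called for aPD1.

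The higher genes were searched for a shared promoter element, since several respond to interferon. The core of the interferon-stimulated response element, GAAA, any 2 bases and GAAA again (TTTC, any 2 bases and TTTC on the other strand), was looked for from 250 bases before to 50 bases after the start of each gene (RefSeq, GRCm38.p6). Of 28 genes higher in any class comparison only 19 had such a window, under 80%, so the share with a match is not compared with the 3.44% of all 32851 windows that held one. Matches were found near the starts of B2m, Gbp2b, H2-T22, H2-T23, Trim5 and Trim30d. The first 4 are shown in the direction of the gene with the matching letters in capitals, because they are genes whose class difference is described above.
B2m, chr2:122147539-122147566, plus strand: taagaacatGAAACTGAAAatgggaaag
Gbp2b, chr3:142594701-142594728, plus strand: tacttctaaTTTCACTTTCttctttatc
H2-T22, chr17:36042915-36042942, minus strand: ttggcttagTTTCACTTTCgaatcccca
H2-T23, chr17:36032807-36032834, minus strand: tcctactgcTTTCTCTTTCataaagaca
The matches began 139, 137, 191 and 124 bases before the RefSeq start of the respective gene. For H2-T23 the annotations differ, and the printed stretch lies within the gene as annotated by GENCODE (chr17:36029773-36032855). A match of letters is not a bound site, and these are letters of the B6 reference and not of the CC strains.

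Host strain was compared next without regard to class, over 8 strains and 44 tumors, with 3 to 8 tumors per strain. Among 8402 genes 1044 differed between strains (12.4%; edgeR adjusted p under 0.05), and DESeq2 called 1381. Each pool held 2 strains, and with the pool as a block 205 genes passed, 192 of them shared. CC007 hosts were only in pools 6 and 7, beside B6 hosts. Outside these pools B6 hosts were only in pool 8, beside CC036 hosts. For B6 and CC007, differences from the other strains cannot be fully told apart from pool. Without mixed cells 463 passed. The share called was above 12.4% in the MHC class I list (11 of 17), the MHC class II list (7 of 15), the C-type lectins (8 of 17), costimulation (5 of 11) and the interferon gamma list (10 of 30), while the cell cycle list had 0 of 18.

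Several MHC genes differed among strains. H2-K1, a classical class I heavy chain, averaged 739.9 CPM ± 46.5 (SD) in CC036 tumors and 2066 CPM ± 342 in CC080 tumors, both non-responder strains, with the other strains between 1064 and 1570 CPM (edgeR adjusted p = 1.82e-11). H2-Eb1, a class II beta chain, was lowest in CC080 at 4068 CPM ± 523 and highest in CC007 at 10110 CPM (adjusted p = 2.62e-08). H2-Oa, which modulates peptide loading of class II in B cells and dendritic cells, averaged 57.5 CPM in CC036 and 60.2 CPM in CC075 and 236.5 CPM in CC002 (adjusted p = 8.45e-05). H2-Ob, its partner chain, was also lowest in these strains, at 30.5 and 25.7 CPM against 84.3 CPM in CC002. Of 30 settings the calls of H2-K1 and H2-Eb1 were lost in 0, and those of H2-Oa and H2-Ob in 1, the pool block (adjusted p = 0.174 and 0.294).

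The remaining class II genes called were H2-DMb2, H2-DMa, Cd74 and Lgmn, and the remaining class I genes H2-D1, H2-Q4, Nlrc5, Tap1 and Tapbp beside those named above. Nlrc5, the transactivator of class I genes, averaged 38.1 CPM in CC079 and 103.9 CPM in B6 (edgeR adjusted p = 0.000986), and its call was lost without CC079 hosts (adjusted p = 0.165). Of 30 settings the call was lost in 3 each for H2-DMa and Tapbp, in 2 for Lgmn, in 1 each for Cd74, H2-DMb2 and H2-D1, and in 0 for H2-Q4 and Tap1. The pool block was among them for H2-DMa, Tapbp, Lgmn and Cd74 (adjusted p = 0.422, 0.584, 0.326 and 0.0792). H2-Ab1 ranged from 6095 CPM in CC075 to 8530 CPM in CC007 and missed the threshold (adjusted p = 0.0653), as did Cd209a, from 143.7 CPM in CC001 to 391.0 CPM in CC080 (adjusted p = 0.0527), and Flt3 (adjusted p = 0.667). Both near misses depended on the setting: Cd209a passed in 12 of 30, among them DESeq2 (adjusted p = 0.0310) and the fit without mixed cells (adjusted p = 0.00136), and H2-Ab1 passed in 5 of 30, DESeq2 among them (adjusted p = 0.0259).

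Clec10a averaged 73.3 CPM ± 31.7 in CC001 and 255.4 CPM ± 55.8 in CC036, with the non-responder strain CC079 low at 97.2 CPM (edgeR adjusted p = 2.74e-06; 0.139 with the pool block). Cd86, which costimulates T cells through CD28, averaged 231.2 CPM in CC080 and 530.9 CPM in B6 (adjusted p = 0.000625). Ccl17 averaged 207.1 CPM ± 99.0 in CC001 and 826.3 CPM in CC007 (adjusted p = 0.0263), and its call was lost in 8 of 30 settings, among them those without CC001 hosts (adjusted p = 0.559) and with the pool block (adjusted p = 0.423). Iigp1 averaged 16.9 CPM in CC079 and 141.0 CPM in B6 (adjusted p = 0.000453), and Irf1 85.0 CPM in CC079 and 208.7 CPM in B6 (adjusted p = 0.00133). Without CC079 hosts neither Iigp1 nor Irf1 passed (adjusted p = 0.117 and 0.0631), and Irf1 was also lost with the pool block (adjusted p = 0.0802).

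The genes of lowest p outside these lists included some that were near 0 in several strains. Ftl1-ps1, a pseudogene of ferritin light chain, averaged 1135 CPM in CC001 and 812.9 CPM in CC080 and 16.9 to 31.4 CPM in the other strains (edgeR adjusted p = 2.21e-21). The CC080 tumors were split by pool, with 134.7 and 129.9 CPM in pool 11 and 1006 to 1404 CPM in pools 3 and 4. Its reads can be shared with the parent gene. Cfap77 averaged 107.1 to 185.6 CPM in CC001, CC002, CC075, CC080 and CC007 and 1.36 to 2.82 CPM in CC036, CC079 and B6 (adjusted p = 4.94e-17). Cep85, Spint1, Mid1 and Cd300c2 were the others, and Cd300c2, an activating receptor of myeloid cells, averaged 419.3 CPM in CC002 and 396.9 CPM in CC079 against 132.0 CPM in CC036 (adjusted p = 1.50e-09). The calls of these 6 genes were lost in 0 of 30 settings.

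**Figure D5:**
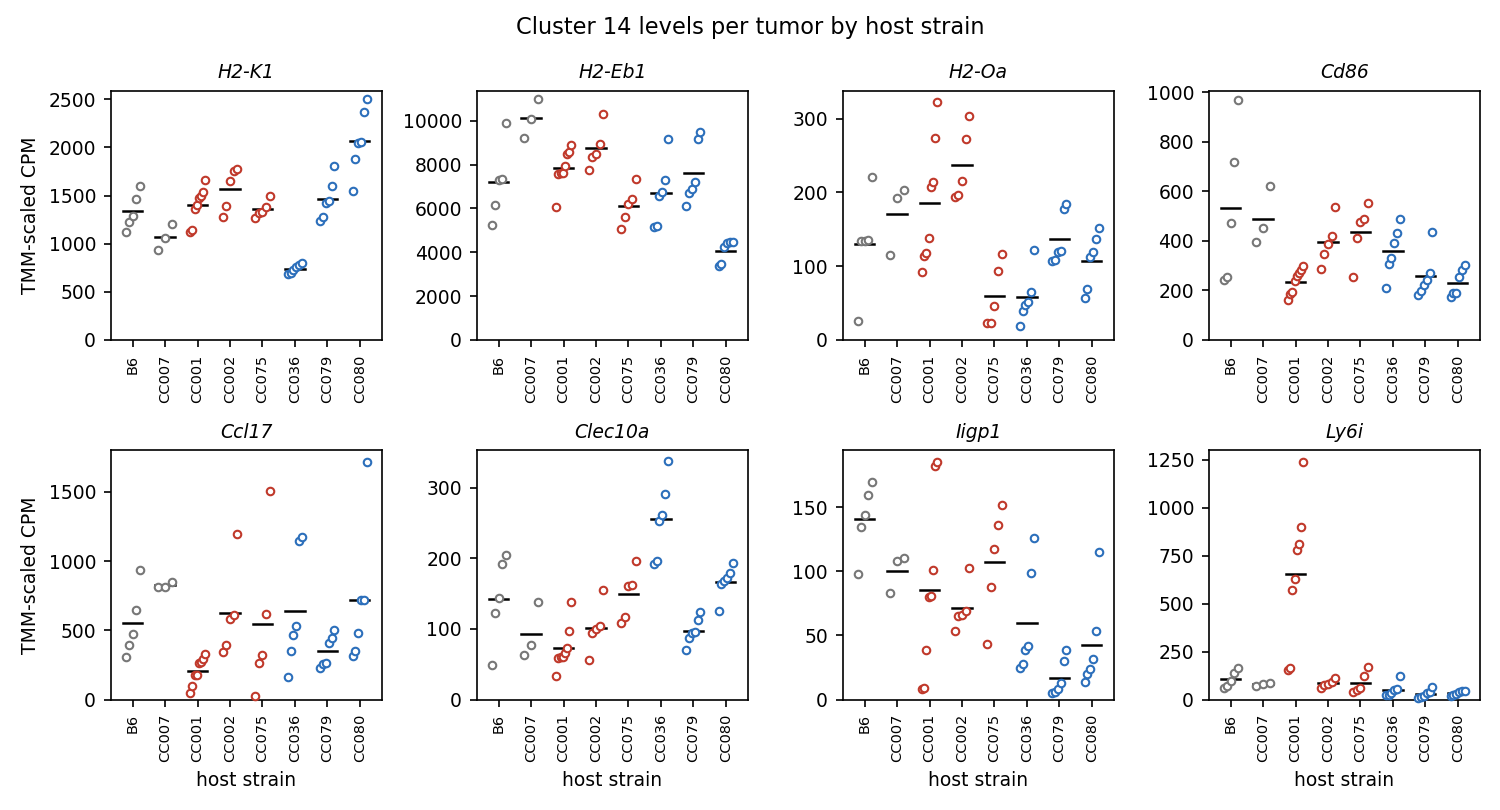
Level of 8 genes in cluster 14 per tumor, as TMM-scaled CPM, by host strain; the line is the mean of the strain. H2-K1 averages 739.9 CPM in CC036 and 2066 CPM in CC080, and Ly6i averages 655.7 CPM in CC001.

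Finally, the class difference in cluster 14 was set against that in the nearest other cells, with the tumor as a block, to see where cluster 14 differed. Against cluster 6, 3 of 5540 genes passed (0.0542%), all with a class difference more positive in cluster 14. Plac8, a small protein of myeloid and plasmacytoid cells, averaged 642.5 CPM in responder and 459.8 CPM in non-responder tumors in cluster 14, and 353.7 and 663.6 CPM in cluster 6 (log2 difference of differences 1.39 ± 0.24, edgeR adjusted p = 0.00146). Mndal, an interferon-inducible nuclear protein, averaged 170.4 and 129.3 CPM in cluster 14 and 85.7 and 120.2 CPM in cluster 6 (0.95 ± 0.15, adjusted p = 0.000342). Of 8 settings the Plac8 call was lost in 1, without CC075 hosts (1.11, adjusted p = 0.0595), and the Mndal call in 0.

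Against macrophages 6 of 9153 genes passed (0.0656%), 3 more positive (0.0328%) and 3 more negative (0.0328%) in cluster 14, and 3 of them were of the MHC class II list. H2-Eb1 averaged 7644 and 6062 CPM in responder and non-responder tumors in cluster 14 and 4008 and 1777 CPM in macrophages (−0.85 ± 0.17, edgeR adjusted p = 0.0232). Cd74, the invariant chain of class II, averaged 18370 and 19600 CPM in cluster 14 and 11260 and 7904 CPM in macrophages (−0.69 ± 0.14, adjusted p = 0.0232). The responder mean thus exceeded the non-responder mean by more in macrophages than in cluster 14 for H2-Eb1, and only in macrophages for Cd74. The macrophage values were summed over 10 clusters, whose mix was not held equal: of the macrophages of a tumor cluster 26 held 28.3% ± 10.4 in responder tumors and 22.2% ± 9.62 in non-responder tumors (SD, n = 20 and 18), cluster 4 held 5.60% ± 2.92 and 8.15% ± 3.99, and cluster 2 held 27.4% ± 9.33 and 27.1% ± 7.62. The part of this mix in the differences was not tested. Both calls were lost in 5 of 8 settings, namely with a higher minimum of cells and without CC001, CC002, CC075 or CC079 hosts. Without CC079 hosts the values were −0.57 for H2-Eb1 (adjusted p = 0.194) and −0.53 for Cd74 (adjusted p = 0.132).

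H2-DMb2, a class II peptide exchange chain, went the other way: 273.1 and 340.4 CPM in cluster 14 and 20.6 and 62.4 CPM in macrophages (1.12 ± 0.19, edgeR adjusted p = 0.00491). H2-Ab1 had a similar difference to Cd74 but missed the threshold (−0.73 ± 0.16, adjusted p = 0.0588), with 7255 and 7041 CPM in cluster 14 and 3857 and 2399 CPM in macrophages. Of the class II list 2 of 14 members were above 0, and the median was −0.44. The other genes that passed were Mctp1 (0.72 ± 0.15), Rgs18 (1.04 ± 0.19, named after its values were seen) and Itm2b (−0.35 ± 0.07), a membrane protein of the lysosomal pathway, at 615.4 and 551.2 CPM in cluster 14 and 1403 and 1007 CPM in macrophages. The calls of Mctp1, Itm2b, Rgs18 and H2-DMb2 were lost in 5, 2, 1 and 1 of 8 settings, each without a change of sign.

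For H2-Q7, by contrast, no such difference passed. It averaged 207.1 CPM in responder and 108.1 CPM in non-responder macrophages, and 141.1 and 68.8 CPM in cluster 6. The MHC class I list had 0 of 17 members called against either macrophages or cluster 6 (medians −0.07 and 0.11). A p that misses the threshold does not show that the class difference was the same in these cells.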

How the data were processed

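Single-cell RNA-seq (10x Genomics 5′ chemistry) had been made from 48 tumors in 12 pools. The authors aligned reads to GRCm38 with Cell Ranger, analysed them with Seurat 5.0.1 per the labels, and deposited raw UMI counts per gene and cell, with the pool, animal, strain, treatment and cluster of each cell. Cells were limited to 15% mitochondrial and 45% ribosomal UMIs. The members and gene lists were chosen with earlier results of these data known.

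Counts of cluster 14 were summed per tumor (at least 20 cells) and tested with edgeR 4.0.16 (filterByExpr, TMM, quasi-likelihood). DESeq2 1.42.0 was an alternative. Shares were compared with exact Wilcoxon tests, with ranks from scipy 1.17.1 and the rank sum enumerated in full. The interaction was tested by the same exact permutation of the rank sum over pair differences. A permutation of the difference of means (up to 100000 resamples) was an alternative. Named were the 4 markers, called genes of 6 lists (up to 10 per list), and the 8 higher and 8 lower called genes of largest difference at 50 CPM or more, without Gm, Rik, ribosomal and immunoglobulin genes; where fewer than 3 passed, 3 per direction by p. Gene fits were tested on simulated counts for the class difference in cluster 14, for that difference minus the one in macrophages, and for host strain. Genes changed by 1 on the log2 scale were recovered in 87.8%, 65% and 34% of cases. No aPD1 effect was simulated. An animal identifier stood on 2 tumors (CC080 isotype, pool 3, and CC080 aPD1, pool 4), and both were kept. Of the genes called against cluster 6, 1 is not reported here.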

Additional observations from a re-analysis of the deposited data

Results flagged for a closer look

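Among 88 groups of 8 to 10 tumors tested for a single tumor that stood apart, 8 had one, where chance alone gives about 1 in 20. B2m in a CC001 aPD1 tumor of pool 2 was at 3706 CPM (next 2956), and H2-Q6 in the same tumor at 202.1 CPM (next 141.3). H2-Q6 at 161.5 CPM (next 79.1) and Ly6i at 122.5 CPM (next 64.8) stood apart in the CC036 aPD1 tumor of pool 10. In CC080 tumors of pool 4, Gadd45gip1 was at 97.25 CPM after aPD1 (next 71.8) and Gbp2b at 27.16 CPM under isotype (next 10.6). Gm10260 was at 86.46 CPM in the CC001 aPD1 tumor of pool 1 (next 26.7) and at 80.73 CPM in the CC001 isotype tumor of pool 4 (next 31.4).

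The class difference of 8 named genes differed between cluster 14 and other cells by a test of the difference itself (edgeR, adjusted p under 0.05). On the log2 scale, cluster 14 minus cluster 6, these were Plac8 (1.39) and Mndal (0.95). Cluster 14 minus macrophages, they were H2-DMb2 (1.12), Rgs18 (1.04), Mctp1 (0.72), H2-Eb1 (−0.85), Cd74 (−0.69) and Itm2b (−0.35). The cause was not tested.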

How the results depend on the processing

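The 9 counts of genes were recomputed in 221 settings and were within 1.5 times the reported count in 176. Included in the 176 are the 29 settings each of the aPD1 effects and their difference, where the count was always 0. The other 45 settings all fell in comparisons that had calls. For class over both treatments the count was 1 summed per strain, 99 without the filter on low counts, 71 with the pool block, 9 in pools 8 to 12, and 15 to 76 with 1 strain or pool left out (15 without pool 5, 76 without CC001 hosts). For isotype it was 18 without the filter, 4 without mixed cells, 5 without the shared animal identifier, 5 in pools 1 to 5, 1 in pools 8 to 12, and 4 to 11 on leaving 1 out. For aPD1 tumors it was 46 without the filter, 10 without mixed cells, 58 with the pool block, 3 in pools 8 to 12, and 10 to 33. For strains it was 1991 without the filter, 463 without mixed cells, 205 with the pool block, and 570 (without CC079 hosts) to 1168. Against cluster 6 it was 7 with a higher minimum of cells and 4 to 23 on leaving 1 out, and against macrophages 2 to 13. The aPD1 effects and their difference had 0 calls in every setting run. The replicate number in the labels is the number of the pool, so the pool block is the replicate block. One setting was chosen after seeing the data and left out the tumor of highest T/NK marker sum: the counts were then 29 for both treatments, 9 for isotype and 14 for aPD1 tumors.

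The class difference in share under isotype was −2.55 points without the shared animal identifier, now past the threshold, and −3.21 to −1.67 on leaving 1 strain or pool out. After aPD1 it was −1.94 to −0.81. The aPD1 effect on the share reversed in responder strains without tumors under 500 cells (0.0425), in pools 8 to 12 (0.117) and on leaving 1 out (−1.19 to 0.546), and in non-responder strains as a share of dendritic clusters (0.80; −1.32 to −0.707 on leaving 1 out). Their difference reversed as a share of dendritic clusters (−6.43; −0.166 to 1.57). Over that denominator the class differences were −4.16 (isotype) and −10.6 (aPD1), and the aPD1 effect in responder strains was −5.62, none past the threshold.

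Of 3526 recomputed values of named genes 427 lost the threshold, 24 gained it and 72 changed sign, all of these in the 4 markers and none called. For both treatments these were Flt3 (0.0053 with at least 10 cells, 0.038 in pools 8 to 12; −0.18 to 0.095 on leaving 1 out) and H2-Ab1 (−0.017 with the pool block; −0.0070 to 0.126). For isotype: Flt3 (−0.066 without mixed cells, −0.064 with the pool block; −0.121 to 0.324). For aPD1 tumors: H2-Ab1 (−0.012 with library size alone, −0.012 without the filter, −0.067 with the pool block, −0.037 in pools 8 to 12; −0.092 to 0.110) and Flt3 (−0.337 to 0.048). For aPD1 in responder strains: H2-Ab1 (−0.0085 with library size alone, −0.0038 with at least 10 cells; −0.056 to 0.085), Clec10a (−0.054 with at least 40 cells, −0.290 in pools 8 to 12, −0.014 without the tumor of highest T/NK sum; −0.149 to 0.352) and Flt3 (−0.474 to 0.026). For aPD1 in non-responder strains: Flt3 (−0.0095 by DESeq2, −0.00033 with library size alone, −0.0058 without the filter, −0.056 without the shared identifier, −0.032 with the pool block, −0.135 in pools 8 to 12; −0.231 to 0.247) and Cd209a (0.097 in pools 8 to 12; −0.214 to 0.103). For their difference: H2-Ab1 (0.026 without mixed cells), Clec10a (0.182 in pools 1 to 5; −0.306 to 0.190) and Flt3 (−0.490 to 0.095). Against cluster 6, Cd209a (−0.354 to 1.32) and Flt3 (−0.175 to 0.046), and against macrophages, Clec10a (−0.246 to 0.345), changed sign on leaving 1 out. The causes were not tested. Depth limits the genes under about 20 CPM, for which a tumor with few cluster 14 cells holds few UMIs.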

Other observations

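The tumors outside both classes gave further values of the share of cluster 14. In B6 hosts it was 8.94%, 3.48% and 5.61% under isotype and 5.54%, 6.21% and 2.09% after aPD1. In CC007 F1 hosts it was 6.20% and 6.23% under isotype and 3.52% and 16.98% after aPD1. The last value rests on 9 of 53 cells (exact Clopper-Pearson 95% interval 8.07% to 29.8%, counting error only). For 3 genes that differed between classes, the unclassed hosts lay between or on either side: H2-Q7 averaged 157.0 CPM in B6 and 136.4 CPM in CC007, Prcp 215.2 and 158.0 CPM, and Dcstamp 125.9 and 217.8 CPM, with 5 and 3 tumors.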
